A study of Mus musculus with 12 samples.

Results

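The genes that make cysteine and glutathione were examined in the ventricular wall of mice that lack Sdhaf4 in striated muscle. They are 8 genes chosen by name: Cbs and Cth of transsulfuration, the cystine carrier gene Slc7a11, the glutathione synthesis genes Gclc, Gclm and Gss, the glutathione reductase gene Gsr, and Ggt5, a gene of the gamma-glutamyl transferase family. Each name matched 1 row of a table of 43686 rows. A filter on low counts kept 17155 rows, among them 7 of the 8 genes, and Cbs was not kept. Poly-A RNA was sequenced from 6 WT hearts (Sdhaf4 fl/fl littermates with no Cre) and 6 KO hearts (Sdhaf4 fl/fl with Ckmm-Cre). Both groups carry the floxed alleles, with loxP sites around the first exons, on a background that the labels give as C57BL/6 and the methods of the study as C57BL/6J. The muscle creatine kinase promoter drives Cre in cardiac and skeletal muscle, so the other cells of the heart keep Sdhaf4, and the Cre transgene itself separates the groups as well. The labels give the age as 2 months and call the KO mice Sdhaf4-/-, whereas the text of the study gives a younger age for these hearts in its results, and its animal statement lists for such analyses male mice of either a younger age or the age of the labels. The protocols do not say whether each library is 1 heart, which was assumed here; otherwise the p-values would measure only the spread between these libraries.

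Cysteine limits the synthesis of glutathione, the main soluble thiol of the cell. It enters the cell as cystine through the xCT carrier, or it is made from the methionine product homocysteine by cystathionine beta-synthase (Cbs) and cystathionine gamma-lyase (Cth). Glutamate-cysteine ligase, a catalytic subunit (Gclc) with a modifier subunit (Gclm), joins cysteine to glutamate, and glutathione synthetase (Gss) adds glycine. Glutathione reductase (Gsr) returns the oxidised form to the reduced one with NADPH, and the gamma-glutamyl transferases start the breakdown of glutathione and its conjugates outside the cell. Cardiac muscle uses glutathione to remove peroxides made by its mitochondria.

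Between 23747014 and 27159228 reads were counted in the WT libraries and between 26542930 and 31393393 in the KO libraries. Levels are given as CPM (read counts scaled to a common library size, with sizes adjusted by edgeR's TMM method), and differences as log2 fold changes of KO over WT. The targeted gene, Sdhaf4, was between 14.3 and 30.3 CPM in the WT hearts and between 2.25 and 2.73 CPM in the KO hearts. WT replicate 6 was the lowest of the WT hearts, and it stood above every KO heart.

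Of the transsulfuration genes only Cth had enough counts to be kept for the test, and it was lower in the KO hearts. Cth (MGP_C57BL6NJ_G0028426, chromosome 3, 167345495 to 167379557, minus strand, C57BL/6NJ assembly), whose enzyme splits cystathionine to release cysteine, was at 2.27 CPM in the lowest WT heart, at a median of 2.97 and at 3.84 in the highest. Among the KO hearts it was at 0.577 CPM in the lowest, at a median of 0.652 and at 0.937 in the highest. The groups did not overlap, and the highest KO heart had less than any WT heart. Cth fell from 3.04 ± 0.513 to 0.681 ± 0.132 CPM (mean and SD of 6 hearts each), which is -2.15 ± 0.20 (log2 fold change ± SE) at an adjusted p of 1.21e-07 in the quasi-likelihood test of edgeR, so that the WT level was 4.44-fold the KO level. The gene was low in every heart, with 57 to 95 counts in each WT library and 16 to 25 in each KO library. A short row on the same strand, with 21 counts in all WT and 2 in all KO libraries, lies within the Cth span, and a read there can come from one or the other. Leaving out any 1 library kept the Cth difference between -2.26 and -2.08.

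Cbs (MGP_C57BL6NJ_G0023897, chromosome 17, 32480988 to 32507442, minus strand), whose enzyme makes cystathionine from homocysteine and serine, was close to the limit of detection in both groups. It had 7 to 11 counts in each WT library, at a median of 0.372 CPM, and 4 to 17 counts in each KO library, at a median of 0.210 CPM. The 6 KO hearts spread around the WT range: 4 lay below the lowest WT heart, 1 lay within the range and KO replicate 6 lay above the highest WT heart. Fitted with no filter on low counts, Cbs differed by -0.40 ± 0.47 (SE) on the log2 scale (edgeR, adjusted p = 0.535), and a difference was not detectable at this depth.

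Cystine uptake depends on Slc7a11 (MGP_C57BL6NJ_G0027610, chromosome 3, 50308481 to 50887298, minus strand), which encodes xCT, the light chain of the cystine carrier. It was at 0.472 CPM in the lowest WT heart, at a median of 0.953 and at 1.31 in the highest. Among the KO hearts it ranged from 0.964 to 1.66 CPM with a median of 1.14. The groups overlapped, with 12 to 31 counts in each WT library and 29 to 46 in each KO library. The difference was 0.42 ± 0.26 (SE) on the log2 scale (edgeR, adjusted p = 0.192), which did not pass the test. Its partner in the carrier is the heavy chain Slc3a2, which also serves other amino acid carriers. Slc3a2 rose from 40.2 ± 2.53 to 65.7 ± 5.34 CPM (mean and SD of 6 hearts each), a log2 fold change of 0.71 (adjusted p = 5.38e-08, edgeR), with no overlap of the groups.

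The promoter of Slc7a11 is shown because the xCT light chain is a known target of ATF4, a transcription factor of the amino acid response, and Atf4 was measured in the same hearts. RefSeq promoters (GRCm38.p6) matched 4 of the 8 genes, Cbs, Gclm, Gss and Slc7a11, and were searched from 250 bases before to 50 after the start, on both strands, for the letters TGATGNAA (CEBP-ATF response element) and TGACNNNGC (core of the antioxidant response element bound by NRF2). The 250 bases before the Slc7a11 start (chr3:50443614-50443863, minus strand, printed 5′ to 3′) hold the CEBP-ATF letters at 2 places, in capitals, once as spelled and once as the reverse complement.
Slc7a11: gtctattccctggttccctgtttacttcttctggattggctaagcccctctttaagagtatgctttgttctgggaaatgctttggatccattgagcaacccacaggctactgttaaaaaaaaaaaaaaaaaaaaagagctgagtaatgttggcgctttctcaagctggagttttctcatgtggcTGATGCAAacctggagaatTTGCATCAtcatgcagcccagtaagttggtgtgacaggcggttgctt
The CEBP-ATF letters occur in 3.97% of all RefSeq mouse promoters, searched over the same window of 250 bases before to 50 after the start. Neither motif was found in the windows of Cbs and Gss. Atf4 rose from 86.4 ± 6.48 to 108 ± 5.21 CPM (mean and SD of 6 hearts each). Its log2 fold change was 0.32 (edgeR, adjusted p = 0.000121). That of Slc7a11 was 0.42 ± 0.26 (SE), and with only 12 to 46 counts a library it did not pass. Whether Slc7a11 followed Atf4 was not tested. Atf4 was named for this comparison after its values had been seen. These are RNA levels, and the ATF4 protein was not measured.

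The 2 subunits of glutamate-cysteine ligase moved in opposite directions. Gclc (MGP_C57BL6NJ_G0035545, chromosome 9, 80296095 to 80338859, plus strand), the catalytic subunit, was at 14.0 CPM in the lowest WT heart, at a median of 18.4 and at 20.3 in the highest. In the KO hearts it was at 21.7 CPM in the lowest, at a median of 30.8 and at 35.8 in the highest. The KO hearts all lay above the WT hearts, by a narrow margin for KO replicate 4. Gclc rose from 17.7 ± 2.21 to 30.3 ± 5.35 CPM (mean and SD of 6 hearts each), or by 0.77 ± 0.12 (SE) on the log2 scale (edgeR, adjusted p = 4.47e-05), or 1.71-fold. Leaving out any 1 library kept the difference between 0.71 and 0.85.

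Gclm (MGP_C57BL6NJ_G0028253, chromosome 3, 129005047 to 129027430, plus strand), the modifier subunit that lowers the enzyme's need for glutamate and its inhibition by glutathione, was at 32.7 CPM in the lowest WT heart, at a median of 40.0 and at 51.9 in the highest. In the KO hearts it was at 18.8 CPM in the lowest, at a median of 24.8 and at 34.8 in the highest. The groups overlapped through KO replicate 3 alone, which lay above WT replicate 6. Gclm fell from 42.0 ± 8.07 to 25.8 ± 5.63 CPM (mean and SD of 6 hearts each), a difference of -0.70 ± 0.15 (SE) on the log2 scale (edgeR, adjusted p = 0.00169). Without KO replicate 3 the log2 fold change was -0.81, and leaving out any other library kept it between -0.77 and -0.62.

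Because both subunits come from the same library, their ratio does not depend on how the libraries are scaled. In the WT hearts 0.364 Gclc reads were counted for each Gclm read in the lowest heart, and 0.501 in the highest. The lowest KO ratio was 1.02, in KO replicate 3, and the highest was 1.24. The ratio was 0.428 ± 0.0465 in WT and 1.18 ± 0.0856 in KO (mean and SD of 6 hearts each), 2.77-fold higher on the log2 scale used for the test (difference 1.47, p = 0.00216 in a two-sided exact permutation test, as small as 6 hearts against 6 can give). The ratios of the groups did not overlap, although the levels of Gclm did. The ratio rests on the same counts as the single differences of Gclc and Gclm above, so its p-value is not independent of them. Within each genotype the subunits ranked the hearts alike at the extremes: WT replicates 1 and 4 were the highest for both and WT replicate 6 the lowest, while KO replicates 3 and 6 were the highest for both and KO replicate 4 the lowest. In a chi-square summed over the counted genes, KO replicates 3 and 6 also stood apart from the other KO hearts. Abundant genes can dominate this sum. Pairs of KO hearts with either of them differed by a chi-square per degree of freedom of 23.9 to 52.6, and the other KO pairs by 11.7 to 16.8. Pairs of WT hearts with WT replicate 6 differed by 15.3 to 22.6, and the other WT pairs by 7.41 to 15.5. Whether the shared ranks of the subunits go beyond this was not tested. The ratio of counts is not a ratio of molecules, since Gclm is the shorter gene in the table (877 against 3423 bases). On the deposited FPKM, which scales for gene length, the ratio was 0.0777 ± 0.00845 in WT and 0.215 ± 0.0156 in KO.

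**Figure D1:**
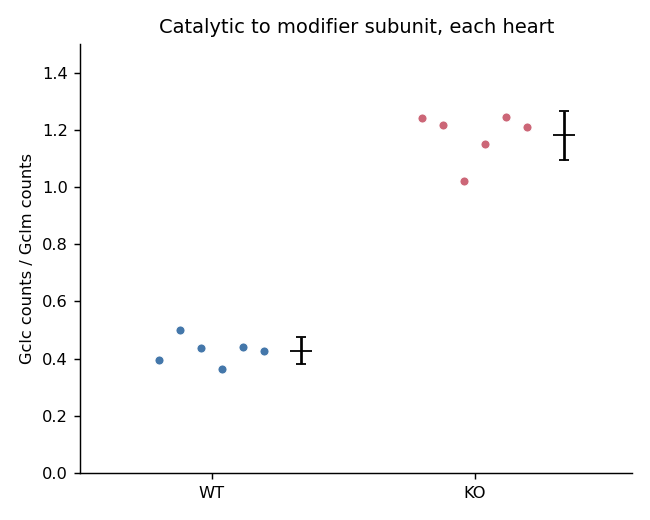
Reads counted on Gclc divided by reads counted on Gclm in the same library (y axis, no unit), for the 6 WT and 6 KO hearts (x axis); each point is a heart, and the bar beside each group is its mean with its SD. The WT hearts lie between 0.364 and 0.501 and the KO hearts between 1.02 and 1.24.

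The promoter of Gclm is shown because both subunit genes are known targets of NRF2. The 250 bases before its start (RefSeq, GRCm38.p6, chr3:122245307-122245556, plus strand, printed 5′ to 3′) hold the antioxidant response core once, in capitals, as the reverse complement of the letters searched.
Gclm: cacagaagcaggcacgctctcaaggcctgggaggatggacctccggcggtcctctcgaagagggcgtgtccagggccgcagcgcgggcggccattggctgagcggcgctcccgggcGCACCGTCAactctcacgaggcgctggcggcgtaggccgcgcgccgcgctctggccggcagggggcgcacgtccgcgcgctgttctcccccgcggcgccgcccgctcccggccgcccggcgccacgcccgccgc
These letters occur in 12.4% of all RefSeq mouse promoters, searched from 250 bases before to 50 after the start. A match in them says nothing of binding. Nfe2l2, the gene of NRF2, was at 73.0 ± 7.63 CPM in WT and 79.6 ± 8.64 in KO (mean and SD of 6 hearts each; log2 fold change 0.12, adjusted p = 0.197, edgeR). Keap1, the gene of its inhibitor, was at 69.7 ± 5.96 and 75.0 ± 2.22 CPM (adjusted p = 0.113, edgeR). Neither passed the test, and both were named here after their values had been seen. These are RNA levels, and the amount and activity of the NRF2 protein were not measured.

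The last step of synthesis and the recycling of glutathione differed little. Gss (MGP_C57BL6NJ_G0027161, chromosome 2, 165096401 to 165129641, minus strand) ranged from 17.1 to 21.4 CPM in the WT hearts (median 19.0) and from 19.7 to 27.0 CPM in the KO hearts (median 21.2). The groups overlapped, and KO replicate 6 was the highest heart. The difference was 0.20 ± 0.08 (SE) on the log2 scale (edgeR, adjusted p = 0.0521), just short of the threshold. Gss passed when WT replicate 1 or 5 or KO replicate 1, 3 or 4 was left out, at 0.21 to 0.23 and an adjusted p of 0.0294 to 0.0477 (edgeR). The Gss span overlaps Acss2 on the other strand (7310 counts in all WT and 6221 in all KO libraries), and how the counting treated strand is not stated.

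Gsr (MGP_C57BL6NJ_G0034018, chromosome 8, 33346326 to 33395621, plus strand) ranged from 32.1 to 35.3 CPM in the WT hearts (median 32.6) and from 32.8 to 41.0 CPM in the KO hearts (median 37.0). The groups overlapped, and KO replicate 4 lay within the WT range. Gsr rose by 0.15 ± 0.06 (SE) on the log2 scale (edgeR, adjusted p = 0.0357). This call did not survive leaving out WT replicate 1, 3, 4 or 6 or KO replicate 1, 3, 5 or 6 (adjusted p from 0.0530 to 0.0925, edgeR), nor did it pass with upper quartile normalization (adjusted p = 0.0553) and with no filter on low counts (adjusted p = 0.0630).

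Ggt5 (MGP_C57BL6NJ_G0017754, chromosome 10, 78450681 to 78485353, plus strand), whose enzyme cleaves the gamma-glutamyl bond of glutathione conjugates such as leukotriene C4, was at 13.5 CPM in the lowest WT heart, at a median of 16.5 and at 19.2 in the highest. In the KO hearts it was at 11.7 CPM in the lowest, at a median of 12.5 and at 15.6 in the highest. KO replicate 6 alone lay within the WT range. Ggt5 fell from 16.2 ± 2.14 to 12.8 ± 1.44 CPM (mean and SD of 6 hearts each), a difference of -0.33 ± 0.10 (SE) on the log2 scale (edgeR, adjusted p = 0.00831), which was -0.40 without KO replicate 6.

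Of the 7 genes tested, 2 rose (Gclc and Gsr), 3 fell (Cth, Gclm and Ggt5) and 2 did not pass (Gss and Slc7a11) at an adjusted p under 0.05. Across all 17155 rows 25.6% were higher and 25.5% lower by the same rule, 51.1% in all. The 7 genes are too few for their share to be told apart from it. The median log2 fold change of the 7 genes was 0.15, beside 0.00 over all rows. Cth alone also met the study's own cut of an absolute log2 value over 1 with an adjusted p under 0.005, as did 10.2% of all rows (4.87% as lower). The hearts of the 2 groups did not overlap for Cth and Gclc, and for 30.1% of all rows, with KO above WT in 14.9% and below in 15.2%. Without KO replicate 3 the counts were again 2 higher and 3 lower, with Gss in place of Gsr among the higher.

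**Figure D2:**
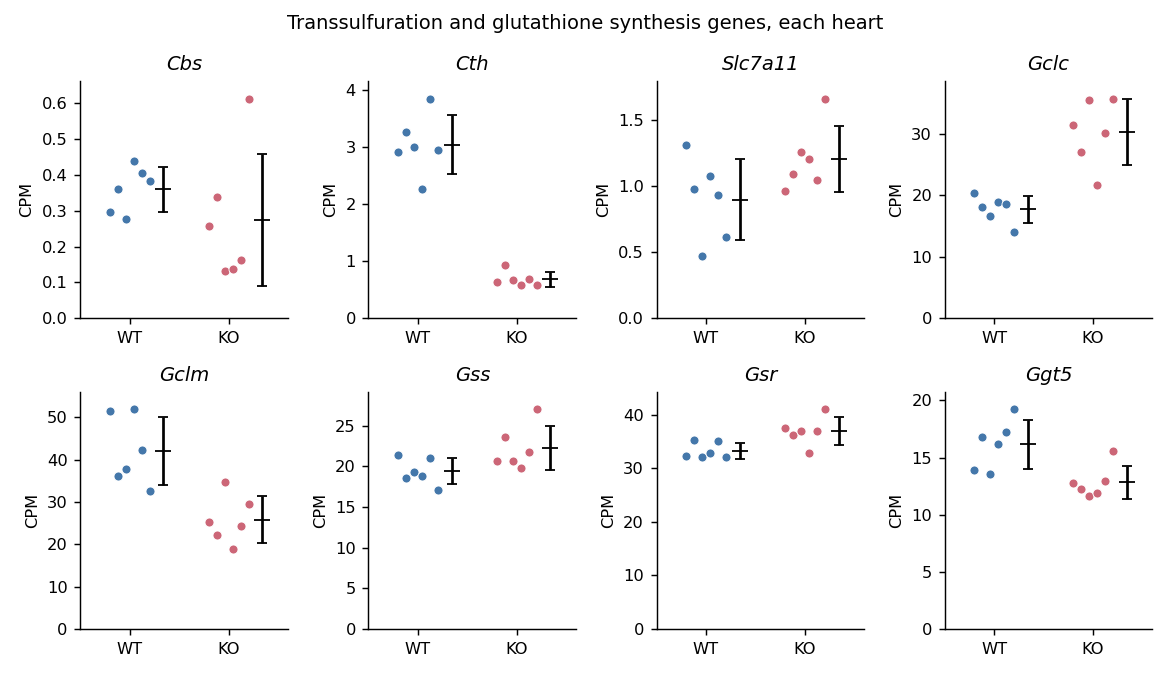
CPM (y axis, a separate linear scale from 0 in each panel) of the 8 genes in the 6 WT and 6 KO hearts (x axis, replicates 1 to 6 from left to right); each point is a heart, and the bar beside each group is its mean with its SD. The hearts separate completely for Cth and Gclc, Gclm overlaps through KO replicate 3, and Cbs and Slc7a11 rest on few counts.

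Levels can be compared between genes only per length. On the deposited FPKM the order in the WT hearts was Gclm at 67.4 ± 12.3, Gsr at 26.7 ± 1.29, Gss at 15.1 ± 1.07, Ggt5 at 9.78 ± 1.42, Gclc at 5.17 ± 0.602, Cth at 3.21 ± 0.531, Cbs at 0.289 ± 0.0505 and Slc7a11 at 0.249 ± 0.0846 (SD, n = 6). The ranges of neighbours in this order did not overlap, except those of Cbs and Slc7a11. In the KO hearts Gclm at 41.3 ± 7.94 FPKM overlapped Gsr at 29.6 ± 1.71, and Gclc, now at 8.81 ± 1.38, overlapped Ggt5 at 7.77 ± 0.815. The FPKM values rest on a length that is not the one in the table's length column for 7 of the 8 genes: for Cth it comes to 945 bases where the column gives 1815. With the column's lengths and TMM library sizes the WT order was again led by Gclm (47.9 ± 9.21 RPKM) and Gsr (12.5 ± 0.561), but Gclc (5.18 ± 0.645) stood above Ggt5 (3.66 ± 0.486). The modifier subunit was therefore above the catalytic subunit on both length scales and in both genotypes.

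**Figure D3:**
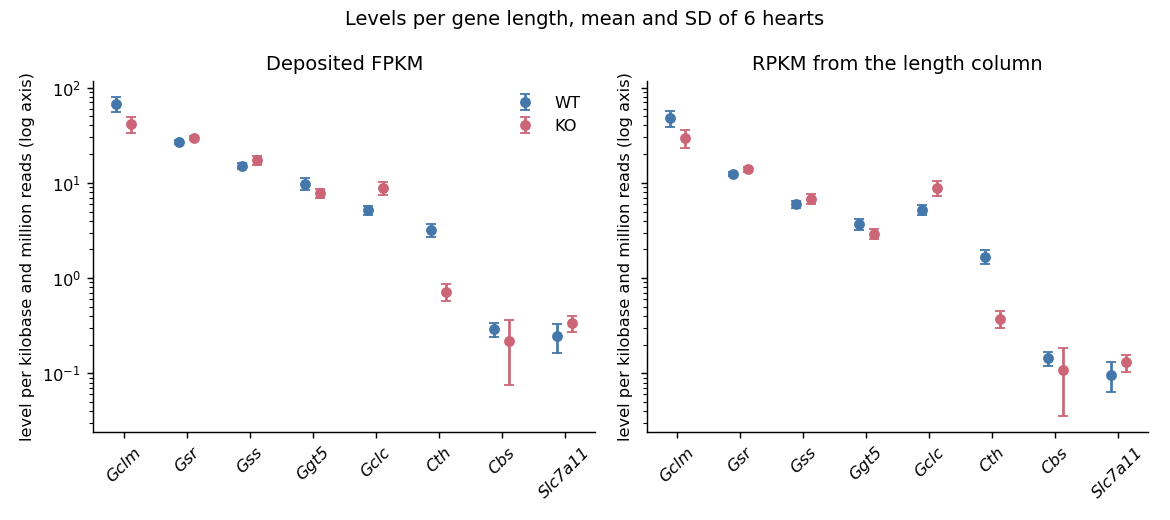
FPKM or RPKM (y axis, log scale) of the 8 genes (x axis, in the order of the WT FPKM), as deposited FPKM on the left and as RPKM from the table's length column on the right; points are means of 6 hearts and bars are SD. Gclm leads in both genotypes on both scales, at 67.4 FPKM in WT and 41.3 in KO, and in the WT hearts Gclc lies below Ggt5 as FPKM and above it as RPKM.

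The other genes of sulfur amino acid and glutathione metabolism were taken from 7 lists, which name 88 symbols (sulfide quinone oxidoreductase under a newer and an older one). No row carried the names Ahcy, Sqor, Gsta1, Gsta2, Gstp1, Gstp2, Glrx3 and Gpx2. Of the 88 symbols 70 were tested, with 16 higher and 32 lower in KO, where 25.6% and 25.5% of all rows were higher and lower, 51.1% in all. The counts of turnover genes (5 of 10 called) and of carriers (4 of 8) are near that share. Those of the peroxidases and the regulators lie close to it as well. The glutathione transferases and glutaredoxins, which conjugate glutathione to other compounds or reduce disulfides with it, had 14 of 22 tested genes lower and 3 higher, with a median log2 fold change of -0.73. Gstk1, the mitochondrial and peroxisomal kappa transferase, fell from 72.3 ± 8.27 to 14.6 ± 3.08 CPM (mean and SD of 6 hearts each; -2.31 ± 0.12 (SE) in log2, edgeR adjusted p = 1.84e-09). Mgst3, a microsomal member, fell from 308 ± 23.5 to 176 ± 21.2 CPM (log2 fold change -0.81), and Gstz1, which acts in tyrosine breakdown, had a log2 fold change of -0.73. The mu class genes Gstm1 to Gstm7 are close in sequence and can share reads, so the size of their single changes is uncertain. They lie side by side on chromosome 3, and all but Gstm5 are among the lower genes. The count and the median of this list therefore rest in part on a single cluster. The mu class was named after its values had been seen.

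Genes that consume cysteine or handle its sulfide were mostly lower as well, with 6 of 8 tested genes lower, 1 higher and a median log2 fold change of -0.52. Mpst and Tst, a pair of sulfurtransferases, had log2 fold changes of -0.90 and -1.17 (adjusted p = 3.17e-08 and 1.35e-06, edgeR), and Sqrdl, the mitochondrial sulfide quinone oxidoreductase, had one of -0.73 (adjusted p = 1.46e-07). Cdo1, which commits cysteine to taurine and sulfate, fell from 7.54 ± 2.86 to 1.39 ± 0.766 CPM (mean and SD of 6 hearts each; -2.44 ± 0.37 (SE) in log2, edgeR adjusted p = 8.26e-05); it was named after its values had been seen. Csad, the next enzyme towards taurine, was the one that rose (log2 fold change 0.51) and was likewise named afterwards. Its groups overlapped, while those of Cdo1, Mpst, Tst and Sqrdl did not.

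In the methionine cycle, which supplies homocysteine, 4 of 7 tested genes were lower and 2 higher, with a median log2 fold change of -0.15. Gnmt, which uses S-adenosylmethionine to methylate glycine, fell from 3.27 ± 0.879 to 0.487 ± 0.227 CPM (mean and SD of 6 hearts each; -2.74 ± 0.28 (SE) in log2, edgeR adjusted p = 5.06e-07). Mtrr, the reductase that keeps methionine synthase active, had a log2 fold change of -0.37, and Ahcyl1, a relative of adenosylhomocysteinase, rose by 0.34. Adenosylhomocysteinase itself (Ahcy) had no row under that name. Mat1a and Bhmt, the liver forms of this cycle, were not kept by the filter, and Bhmt2 had no count in any heart; these were named after their values had been seen.

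Carriers of cystine and glutathione had 2 of 8 tested genes higher and 2 lower, with a median log2 fold change of 0.24. Beside Slc3a2, the efflux pump Abcc1 rose by 0.38 on the log2 scale, and Slc25a39, the mitochondrial glutathione carrier, fell from 107 ± 4.11 to 73.9 ± 2.25 CPM (mean and SD of 6 hearts each; log2 fold change -0.53, adjusted p = 2.64e-08, edgeR). Genes of glutathione turnover had 2 of 10 tested genes higher and 3 lower, with a median of 0.01. Ggt7 rose by 1.12 and Dpep1, a dipeptidase that acts after the transferases, by 0.81 on the log2 scale, while Oplah, which returns 5-oxoproline to glutamate, had a log2 fold change of -0.48. Ggt1, the transferase best known for glutathione breakdown and also named afterwards, was not kept by the filter. The glutathione peroxidases had 2 of 5 tested genes higher and 1 lower, with a median of 0.20; Gpx4 and Gpx1 rose by 0.25 and 0.23, and Gpx7 had a log2 fold change of -0.35, a call lost without WT replicate 5, WT replicate 6 or KO replicate 3 (adjusted p from 0.0554 to 0.0689, edgeR). Among the regulators, 4 of 10 tested genes were higher and 2 lower, with a median of 0.14. The small Maf genes Maff and Mafk, whose proteins pair with NRF2, and a further regulator, Ddit3, rose by 0.96, 0.71 and 0.95 on the log2 scale. Mafg, the other small Maf gene of the list, named after its values had been seen, fell, with WT values of 56.6 to 60.0 CPM and KO values of 40.1 to 54.0 CPM (log2 fold change -0.32, adjusted p = 0.000215, edgeR), with no overlap of the groups. Nfe2l1, the other lower regulator and likewise named afterwards, fell from 694 ± 35.7 to 552 ± 45.1 CPM (mean and SD of 6 hearts each). Its log2 fold change was -0.33 (adjusted p = 0.000178, edgeR), and its groups did not overlap.

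**Figure D4:**
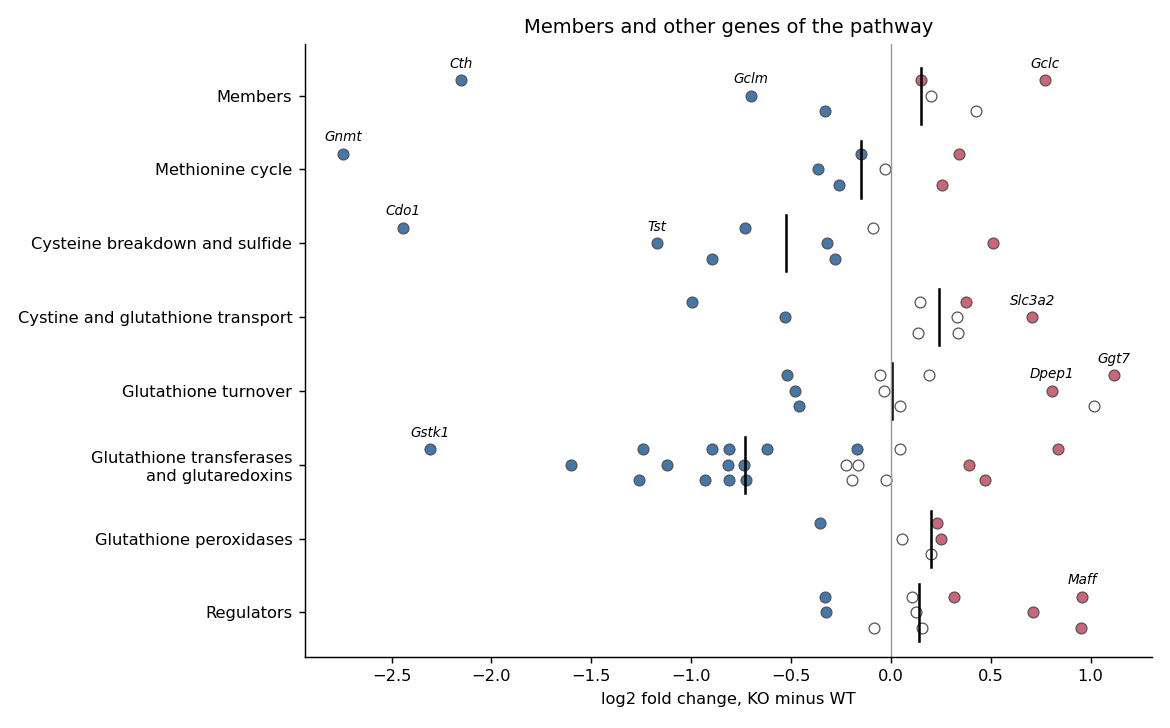
Log2 fold change of KO over WT (x axis) for the tested genes among the 8 described here (top row, labelled members) and in the 7 lists of other pathway genes (y axis); each point is a gene, filled red where it was higher and blue where it was lower at an adjusted p under 0.05, open where it did not pass, and the black line is the median of the list. Cth (-2.15) lies with Gnmt (-2.74), Cdo1 (-2.44) and Gstk1 (-2.31) at the lower end, and Gclc (0.77) and Gclm (-0.70) lie on either side of 0.

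The hearts also differed in their cell markers, and in bulk tissue fewer cells of a type and less RNA per cell cannot be told apart. Of all rows 51.1% were called, and the counts of markers below stand beside that share. Of 9 cardiomyocyte markers tested, 5 were lower and 1 higher, and their summed level was 50634 to 55068 CPM in WT and 42362 to 57024 in KO. All 9 fibroblast markers were tested, with 8 higher and 1 lower, and their sum was 1550 to 1811 CPM in WT and 2650 to 4974 in KO. Of 8 endothelial markers 6 were higher and none lower (1432 to 1623 CPM in WT and 1696 to 2049 in KO). Macrophage markers had 1 higher and 2 lower of 7 (211 to 298 CPM and 215 to 346), and smooth muscle and pericyte markers 3 higher and 2 lower of 8 (1414 to 1653 CPM and 1471 to 1960). No marker of lymphocytes, neutrophils, epicardium or red cells passed the test. None of the markers with a row was at 0 in all hearts. What these shifts contribute to the changes in Cth, Gclc, Gclm, Gsr and Ggt5 was not tested.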

How the data were processed

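The authors isolated mRNA on poly-T beads and counted reads per gene with HTSeq; per the labels the reads were aligned with HISAT2 2.0.5. The submitters' notes name mm10, whereas the identifiers in the table are those of the C57BL/6NJ assembly, to which the gene coordinates given here belong. The values used are the deposited raw counts and the deposited FPKM of each library, which the authors scaled by a gene length and by library size. That length is the same in every library but differs from the length column, another value of the deposited table, for many rows. The authors' own fold changes and p-values (DESeq) and their group means are also in the table and were not used.

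Counts were fitted in R 4.3.3 with edgeR 4.0.16: rows were filtered by filterByExpr and scaled by TMM, dispersions were robust, and a quasi-likelihood test over all rows kept was used with Benjamini-Hochberg adjustment and a threshold of 0.05. Standard errors were derived from the estimate and its F value. The Gclc to Gclm ratio was tested on log2 counts with 0.5 added. The analysis was tested on simulated counts of 17155 rows, of which 200 were changed 2-fold. Of these 191 were tested and 168 were called, all in the right direction, with 10 false calls. Far fewer rows changed there than were called in these hearts, so changes of this extent were not simulated. The members and gene lists were chosen with earlier results of these data known. The genes named are the 8 members, Sdhaf4 and the 3 genes with the smallest p of each list; others are marked where they appear. Alternatives were other normalizations (DESeq2 1.42.0 size factors, library size only, upper quartile), DESeq2, limma-voom (limma 3.58.1), no robust dispersions, other filters, removal of unannotated loci, a replicate block and each library left out. FPKM of the lowest genes rest on few counts, and library depths (23747014 to 31393393 counts) limit only counting error.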

Additional observations from a re-analysis of the deposited data

Results flagged for a closer look

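In 62 groups of 6 values examined (the 8 genes, Sdhaf4, the named pathway genes and the Gclc to Gclm ratio, each in WT and in KO), 3 libraries stood far from the others of their group by Dixon's test, where chance gives about 3.1. Cth was at 0.937 CPM in KO replicate 2, and between 0.577 and 0.684 CPM in the other KO hearts. Without this heart the log2 fold change of Cth was -2.26. Ggt5 was at 15.6 CPM in KO replicate 6, and between 11.7 and 12.9 CPM in the other KO hearts. Sdhaf4 was at 2.73 CPM in KO replicate 1, and between 2.25 and 2.41 CPM in the other KO hearts.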

How the results depend on the processing

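With 10 other settings, 65 of 70 values of the 7 tested genes kept their direction and their side of the threshold, and none reversed. Gss passed with library size only (log2 fold change 0.20, adjusted p = 0.0398) and with at least 1 CPM in 6 libraries (0.20, adjusted p = 0.0461). Gsr did not pass with upper quartile normalization (0.14), with no filter on low counts (0.15) or with the replicate block (0.15, adjusted p = 0.0707), which left 1 member higher in place of 2 in each of these settings. With each library left out in turn, Gss ranged from 0.13 to 0.23, Gsr from 0.11 to 0.18, and the number of members higher from 1 to 3; 3 were lower in every fit. The cause was not tested. Of 462 values of the 21 named pathway genes, 459 were likewise kept and 3, all of Gpx7, no longer passed. The counts of rows called and of pathway genes called stayed within 1.5 times under every alternative. The labels number the hearts 1 to 6 in both genotypes, but same-numbered hearts did not deviate together (correlations of deviations from the genotype means -0.162 to 0.0243), so the block on the replicate number pairs nothing known; under it the counts were 4123 rows higher and 4110 lower. Slc7a11, Cbs and Cth in the KO hearts rest on under 50 counts a library, which limits the precision of their changes. The same holds for Gnmt and Cdo1, with 85 and 241 counts in all KO libraries together.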
